A study of Mus musculus with 12 samples.

Results

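The proteasome genes described here are the 49 entries, of 15759 in the deposited table, whose symbol runs from Psma to Psmg followed by a number and whose mean over the 12 libraries was at least 10 normalized counts. No entry with such a symbol fell under this minimum, and the means ranged from 15.5 normalized counts for Psma8 to 8109 for Psmd2. By their known roles, 31 of the genes encode the standing parts of the 26S proteasome, 3 the inducible subunits of the immunoproteasome, 6 activators or an inhibitor, 7 assembly chaperones and 1 (Psma8) a tissue-restricted alpha subunit. The remaining one, Psmc3ip, encodes a partner protein in meiotic recombination that only carries a subunit's name, and it was kept because the symbol matches. Psmb11, the thymus-specific subunit, was not analysed here. The samples were macrodissected cortex and cerebellum of SCA1 KI mice, which carry Atxn1 154Q/2Q on a pure C57BL/6J background and express the expanded allele under the gene's own regulators, and of their wild-type (WT) littermates. All mice were 12 weeks old, and 3 libraries were made for each of the 4 combinations of region and genotype. The labels list male mice, whereas the study's methods describe males and females combined. The cerebellar libraries came from an earlier experiment of the same laboratory, so region and sequencing experiment cannot be told apart.

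The proteasome is the main protease for short-lived, damaged and misfolded proteins in the cytosol and nucleus. Its 20S core is a barrel of outer alpha rings, which gate the entrance, and inner beta rings, which hold the cutting sites. The 19S regulator caps the barrel: its base of ATPases unfolds a substrate and threads it inwards, and its lid removes the ubiquitin chain that marked the substrate. Other caps replace the 19S regulator without using ATP, and after interferon signalling the 3 cutting beta subunits are exchanged for immunoproteasome versions that favour peptides for antigen presentation. Polyglutamine proteins such as mutant ataxin-1 collect in inclusions that also hold ubiquitin and proteasome parts.

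Libraries held between 29520855 and 51311309 reads on genes. Values below are normalized counts, which are reads scaled by a size factor per library. LFC is the log2 fold change on log2(normalized count + 1), SCA1 KI against WT unless stated, with its standard error (SE) and a Benjamini-Hochberg adjusted p over 15369 tested genes from limma. A gene was called if its adjusted p was under 0.05 and its LFC above 0.25 or below −0.25. Library columns carry a letter or number of their own (cortex WT B, C and D, SCA1 KI A, E and F, cerebellum WT 2, 4 and 6, SCA1 KI 1, 3 and 5), and nothing says from how many animals each came, so the tests measure the spread between these libraries. In whole tissue, fewer cells of a type and less RNA per cell cannot be told apart. Summed markers of cortical excitatory neurons were 83478 to 85296 normalized counts in WT cortex and 57024 to 67339 in SCA1 KI cortex (2 of 6 called lower, with Fezf2 at 0 in some libraries). Those of astrocytes were 50263 to 55335 and 33383 to 43584 (3 of 5 called lower), those of Purkinje cells, a list of cerebellar neurons, 41760 to 44732 and 24133 to 28302 (3 of 5 called lower), those of forebrain interneurons 30852 to 33400 and 22049 to 30452 (1 of 5 called lower), and those of thalamus and midbrain 689 to 902 and 1290 to 1993 (3 of 6 tested called higher). Microglial markers summed to 12570 to 14111 in WT and 12509 to 12894 in SCA1 KI cortex, with 0 of 8 called. The cerebellum differed too: thalamus and midbrain markers summed to 2366 to 3713 in WT and 616 to 720 in SCA1 KI mice (5 of 6 tested called lower), forebrain interneuron markers to 37532 to 39952 and 31827 to 33296 (2 of 5 called lower), astrocyte markers to 96669 to 99595 and 86924 to 90285 (1 of 5 called lower) and microglial markers to 4010 to 5592 and 3756 to 3950 (1 of 8 called lower). Oligodendrocyte markers summed to 178046 to 266831 in WT and 152414 to 152494 in SCA1 KI cerebellum (0 of 6 called). Choroid plexus markers ranged from 19267 to 71866 in WT and from 751 to 75077 in SCA1 KI cerebellum (0 of 5 called). The part of these shifts in the results below was not tested. Atxn1 itself, which the knock-in does not remove, had 8147, 7443 and 6521 normalized counts in WT cortex and 4604, 7249 and 6267 in SCA1 KI cortex (LFC −0.31, SE 0.13, adjusted p = 0.132). In the cerebellum it had 3737, 3628 and 3671 in WT and 3812, 3717 and 4138 in SCA1 KI mice (LFC 0.08, adjusted p = 0.837), and the repeat length is not visible in such counts.

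In the cortex, 2 of the 49 genes were called, both higher in SCA1 KI mice: Psme1 and Psme2, which encode the alpha and beta subunits of the interferon-inducible proteasome activator. No gene was called lower. The members called higher made 4.08%, against 4.82% of all tested genes, and the share called lower was 0%, against 10.8% of all tested genes. The median LFC of the 49 genes was 0.09, and that of all tested genes was 0.00. In the cerebellum none of the 49 was called, against 5.36% of all tested genes in either direction, and their median LFC was 0.00. Only Psmd10 had an unadjusted p under 0.05 there, and edgeR and DESeq2 on the recovered reads likewise called 0 genes and had that 1 gene under 0.05.

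**Figure D1:**
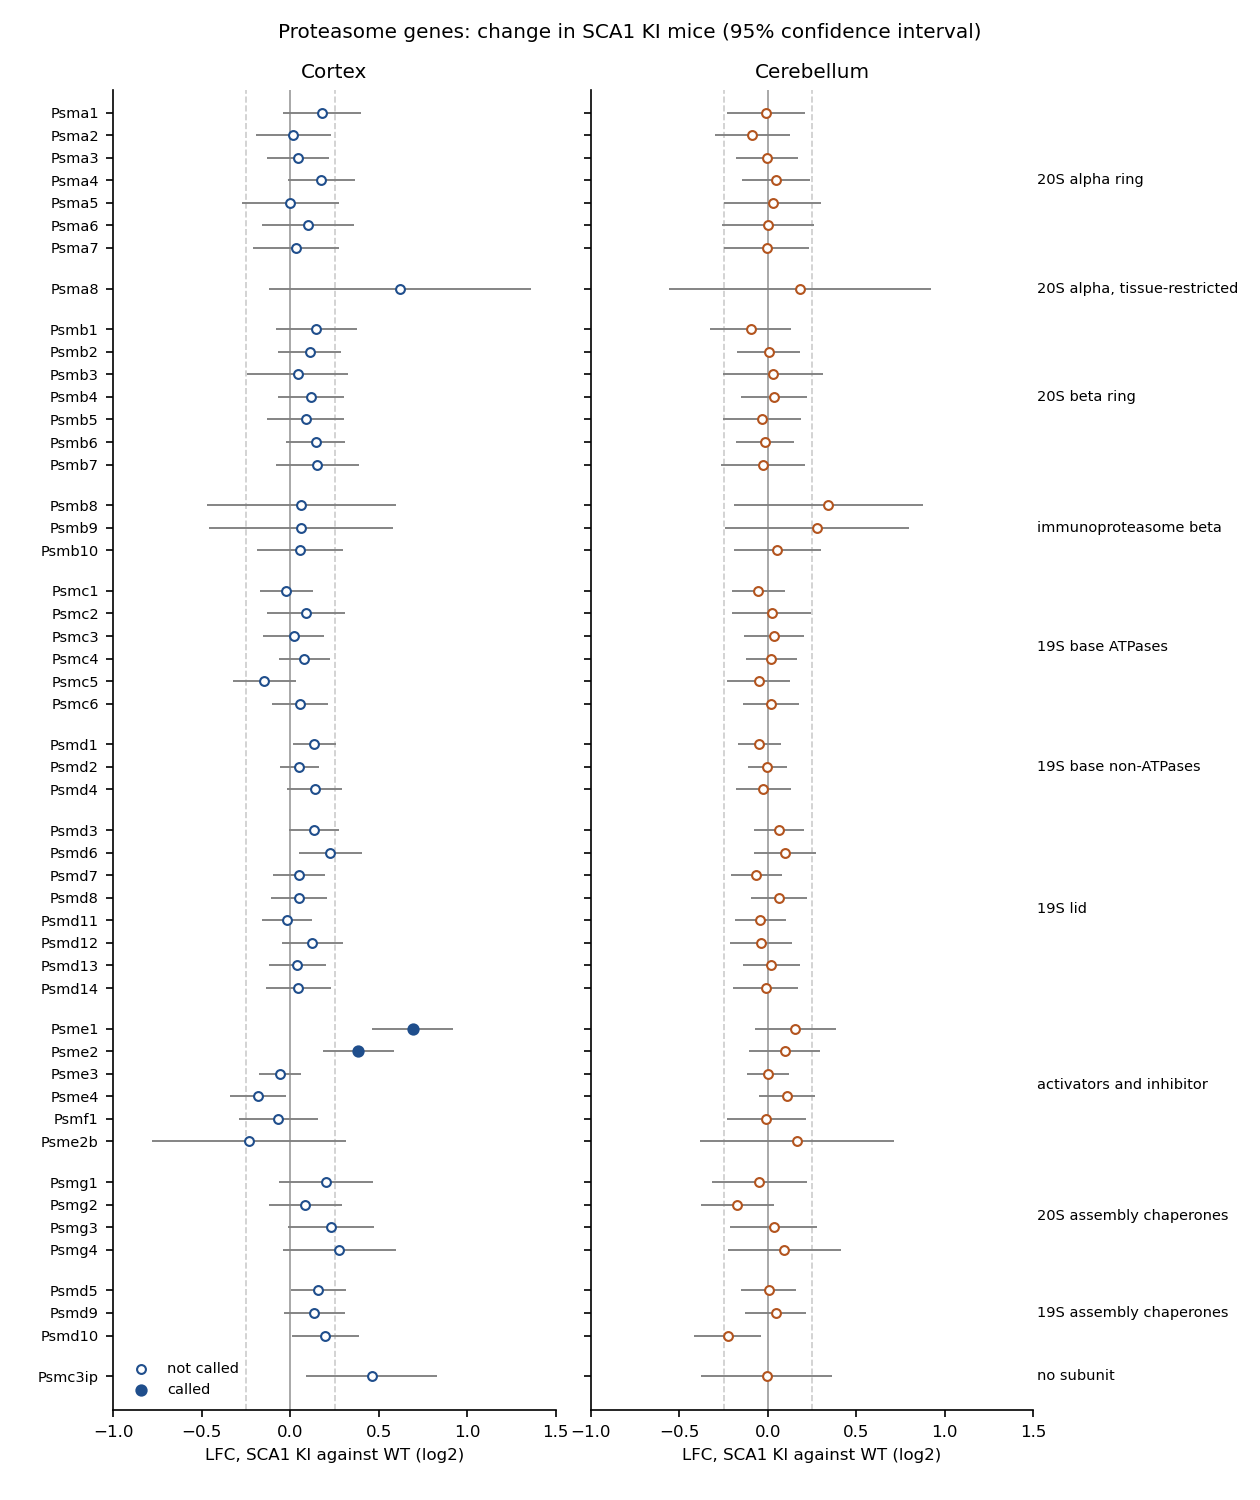
Change of the 49 genes in SCA1 KI mice, cortex left and cerebellum right, ordered by role from the 20S core (top) to the assembly chaperones. Points are LFC values with 95% confidence intervals, dashed lines mark the limit of 0.25 and filled points are called. Psme1 (LFC 0.69) and Psme2 (0.39) in the cortex are the only filled points, and the standing subunits lie close to 0 in both regions.

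Psme1 was the most changed of the genes. It lies on chromosome 14 from 55578123 to 55581529 (GRCm38, plus strand, protein-coding). Its normalized counts were 992, 922 and 1046 in WT cortex and 1845, 1476 and 1483 in SCA1 KI cortex, so every SCA1 KI library lay well above every WT library. The group values were 987 ± 62.2 and 1601 ± 211 (SD, n = 3 each), a 1.61-fold difference (LFC 0.69, SE 0.11, adjusted p = 0.000708). This call held in all 22 alternative analyses, with LFC values from 0.59 (leaving out SCA1 KI library A) to 0.75 (without SCA1 KI library E). In the cerebellum Psme1 had 712, 606 and 574 normalized counts in WT and 659, 693 and 749 in SCA1 KI mice. The genotypes overlapped there, and the LFC of 0.15 (95% confidence interval −0.07 to 0.38, adjusted p = 0.517) did not pass. This LFC was 0.25 with the trend on length and GC content removed (adjusted p = 0.0621), where the median of all tested genes was 0.08. Leaving out single libraries gave values from 0.09 (WT library 6) to 0.25 (WT library 2, adjusted p = 0.339). A smaller rise of Psme1 in the cerebellum was therefore not excluded.

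Psme2, the partner subunit, lies on the same chromosome from 55587441 to 55591113 (GRCm38, minus strand), 5911 bases beyond the end of Psme1. In the cortex it had 608, 601 and 672 normalized counts in WT and 946, 733 and 790 in SCA1 KI mice, again without overlap. The means were 627 ± 38.8 and 823 ± 110 (SD, n = 3 each), a 1.31-fold difference (LFC 0.39, SE 0.09, adjusted p = 0.0127). This call was lost without WT library C (LFC 0.36, adjusted p = 0.0508) and with the cortex fitted on its own (adjusted p = 0.0657), and leaving out SCA1 KI library A gave an LFC of 0.28 (adjusted p = 0.0368). Cerebellar counts were 599, 589 and 609 in WT and 608, 669 and 642 in SCA1 KI mice. Their LFC was 0.09 (95% confidence interval −0.11 to 0.30, adjusted p = 0.692).

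**Figure D2:**
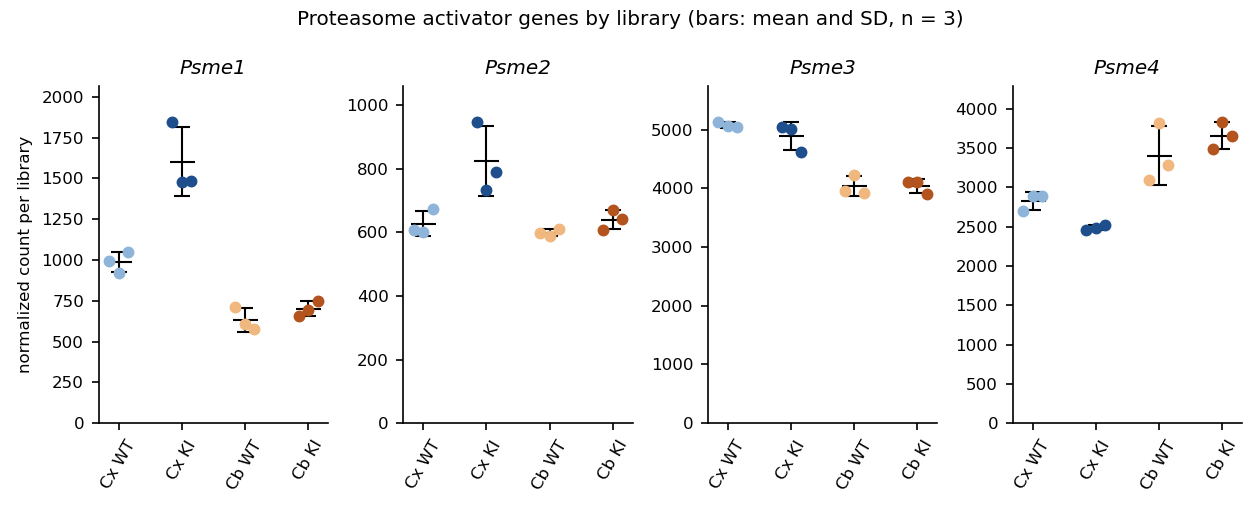
Normalized counts of the proteasome activator genes in every library. Points are libraries of cortex (Cx) and cerebellum (Cb), bars are the mean and SD of 3 libraries. The SCA1 KI cortex points of Psme1 (1476 to 1845) and Psme2 (733 to 946) lie above all WT cortex points. Those of Psme4 (2459 to 2526) lie below all WT cortex points, and so do those of Psme3 (4614 to 5042, WT from 5044). The genotypes overlap in the cerebellum.

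The last exon of Psme1 touches Emc9 on the other strand, and the counting was not stated to use strand. Emc9 itself had a cortical LFC of 0.07 (adjusted p = 0.71). Of 8 tested genes within 50 kb of the pair, which were looked at after these values were seen, none was called in the cortex, and their LFC values ran from −0.05 (Ipo4) to 0.38 (Rec8, SE 0.29). Rnf31, next to Psme2 and a part of the linear ubiquitin ligase, had an LFC of 0.28 (SE 0.09, adjusted p = 0.0522).

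The difference between the regions was called for 1 gene of the 49, Psme1, against 8.15% of all tested genes. Its LFC was 0.54 larger in the cortex than in the cerebellum (SE 0.15, adjusted p = 0.0439). With the trend on length and GC content removed, this difference was 0.44 (adjusted p = 0.0222). The call rested on most of the libraries: the adjusted p rose to 0.0547 to 0.118 when any one of 8 of the 12 libraries was left out (cerebellum SCA1 KI 1, 3 and 5, cerebellum WT 2 and 4, cortex SCA1 KI A, cortex WT B and C), while the difference lay between 0.43 and 0.60 over all 12 such fits. The same term for Psme2 was 0.29 (SE 0.13, adjusted p = 0.224). A change of Psme2 confined to the cortex was therefore not shown.

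Because both subunits join into 1 ring, their levels were also set against each other per kilobase of transcript. Psme1 to Psme2 ratios per kb were 1.41, 1.33 and 1.35 in WT cortex and 1.69, 1.74 and 1.62 in SCA1 KI cortex. In the cerebellum they were 1.03, 0.890 and 0.815 in WT and 0.937, 0.895 and 1.01 in SCA1 KI mice. The cortical groups did not overlap and the cerebellar groups did. Both genes had been picked because they were called in these cortex libraries, so the ratio is a description. Whether the transcripts moved unequally was not tested.

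The promoters of these genes are shown because Psme1 and Psme2 moved together while Psme3, the related activator gene on chromosome 11, did not pass the test. Each run is 250 bases before to 50 after the start site in RefSeq (GRCm38.p6), 5′ to 3′ on the gene's strand, at chr14:55578244-55578543 (plus) for Psme1, chr14:55591052-55591351 (minus, the first of 2 listed starts) for Psme2 and chr11:101315963-101316262 (plus) for Psme3. The Psme1 window lies inside the gene model given above, which starts at 55578123, so the annotations differ in the start site of Psme1. Capitals mark matches on either strand to CCAAT (the NF-Y box), CCGGAAG (an ETS core), TGACNNNGC (an antioxidant response element core) and GAAANNGAA (the core of an interferon-stimulated response element, a motif added after the values were seen).
Psme1: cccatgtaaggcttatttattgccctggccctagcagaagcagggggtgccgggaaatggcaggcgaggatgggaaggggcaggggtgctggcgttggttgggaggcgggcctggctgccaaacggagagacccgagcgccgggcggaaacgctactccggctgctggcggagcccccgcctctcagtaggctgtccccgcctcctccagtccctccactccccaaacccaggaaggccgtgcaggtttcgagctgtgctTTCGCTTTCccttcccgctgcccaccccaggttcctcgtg
Psme2: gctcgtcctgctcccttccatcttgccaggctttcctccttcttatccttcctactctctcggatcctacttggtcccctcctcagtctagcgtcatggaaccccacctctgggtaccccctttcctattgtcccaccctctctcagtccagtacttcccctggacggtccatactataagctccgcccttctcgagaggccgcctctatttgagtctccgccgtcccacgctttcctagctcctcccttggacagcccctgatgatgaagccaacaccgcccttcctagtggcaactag
Psme3: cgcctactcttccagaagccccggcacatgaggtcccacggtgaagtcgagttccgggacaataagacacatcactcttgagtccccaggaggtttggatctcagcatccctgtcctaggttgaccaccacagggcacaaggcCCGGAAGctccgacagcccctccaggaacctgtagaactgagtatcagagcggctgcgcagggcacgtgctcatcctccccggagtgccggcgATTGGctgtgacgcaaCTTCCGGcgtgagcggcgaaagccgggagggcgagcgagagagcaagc
The Psme1 window held 1 match, the interferon-type core, which began 10 bases after the RefSeq start site on the reverse strand. In the Psme2 window none of these letter patterns occurred, and the Psme3 window held an NF-Y box and 2 ETS cores. Over all 27025 genes with a promoter in that table, GAAANNGAA occurred in 9.76%, CCAAT in 41.1%, CCGGAAG in 9.93% and TGACNNNGC in 13.99%. Among the 41 proteasome genes with a listed promoter, the shares were 17.1%, 34.1%, 36.6% and 14.6% (7, 14, 15 and 6 genes). The median cortical LFC was 0.05 with and 0.09 without CCAAT, 0.09 with and 0.07 without CCGGAAG, and 0.11 with and 0.06 without TGACNNNGC. It was 0.13 for the 7 genes with GAAANNGAA, which include Psme1 itself, and 0.06 for the other 34. These matches describe letters and not binding.

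The other activator genes were not called. Psme3, which encodes the nuclear activator subunit, had 5130, 5070 and 5044 normalized counts in WT cortex and 5042, 5006 and 4614 in SCA1 KI cortex, and its LFC of −0.06 lay in a narrow 95% confidence interval (−0.17 to 0.06, adjusted p = 0.52). Psme4, the gene of the large single-chain activator, had 2696, 2886 and 2893 normalized counts in WT and 2459, 2481 and 2526 in SCA1 KI cortex. All SCA1 KI libraries were the lower ones, but the LFC of −0.18 (SE 0.07, adjusted p = 0.11) did not pass. Over the alternatives that kept all libraries, this LFC ran from −0.18 to −0.11, with an adjusted p of up to 0.415. In the cerebellum Psme4 had 3099, 3820 and 3288 normalized counts in WT and 3495, 3831 and 3650 in SCA1 KI mice (LFC 0.11, adjusted p = 0.507). The difference between the regions was −0.29 (SE 0.10, adjusted p = 0.114). When libraries were left out singly, its adjusted p ran from 0.0204 (without cerebellum WT library 4) to 0.256. Psmf1, the gene of an inhibitor of the core, had an LFC of −0.07 in the cortex and −0.01 in the cerebellum. Psme2b, a near copy of Psme2 with 24.5 to 45.2 normalized counts per library in WT mice, is uncertain because reads of both copies may not have been told apart, and its cortical LFC was −0.23 (95% confidence interval −0.78 to 0.31).

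The immunoproteasome subunit genes, which interferon induces together with Psme1 and Psme2, did not pass in either region. Psmb8 had 108, 75.3 and 122 normalized counts in WT cortex and 112, 88.0 and 114 in SCA1 KI cortex (LFC 0.06, 95% confidence interval −0.47 to 0.60, adjusted p = 0.894). Psmb9 had 38.0, 54.3 and 47.8 in WT and 61.1, 34.4 and 53.2 in SCA1 KI cortex (LFC 0.06, interval −0.46 to 0.58). Both groups overlapped for each gene, and at these low counts a change of up to about 0.6 in LFC lies within the intervals. Psmb10 was measured more tightly, with 967, 953 and 1124 normalized counts in WT and 1213, 976 and 979 in SCA1 KI cortex. Its LFC of 0.05 had a 95% confidence interval of −0.19 to 0.30 (adjusted p = 0.79), where that of Psme1 was 0.46 to 0.92. A joint induction of these genes by interferon was not tested.

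In the cerebellum these genes did not pass either. Psmb8 had 83.1, 51.3 and 53.6 normalized counts in WT and 104, 72.1 and 62.9 in SCA1 KI mice (LFC 0.34, SE 0.25, adjusted p = 0.551), and this LFC was 0.14 without SCA1 KI library 1 and 0.56 without WT library 2. Psmb9 had 39.3, 28.1 and 28.0 in WT and 37.1, 37.1 and 40.7 in SCA1 KI mice (LFC 0.28, adjusted p = 0.632). Psmb10 had 445, 365 and 374 in WT and 447, 394 and 386 in SCA1 KI mice (LFC 0.05, adjusted p = 0.875). The groups overlapped for all 3 genes. Exons of Psmb9 overlap Tap1 and those of Psmb8 overlap Gm20496, so some of their reads may belong to those genes.

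Set against the constitutive subunit that each replaces, per kb of transcript, the immunoproteasome genes took a small share. Psmb9 made 1.15% ± 0.211 of the sum of Psmb9 and Psmb6 in WT cortex and 1.10% ± 0.248 in SCA1 KI cortex (SD, n = 3 each). Psmb8 made 3.00% ± 0.702 and 2.91% ± 0.367 of its sum with Psmb5. Psmb10 took the largest share, 20.03% ± 1.65 of its sum with Psmb7 in WT cortex and 18.9% ± 0.626 in SCA1 KI cortex. In the cerebellum the Psmb10 share was 9.10% ± 0.717 in WT and 9.58% ± 0.72 in SCA1 KI mice, so the regions differed in it and the genotypes overlapped.

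**Figure D3:**
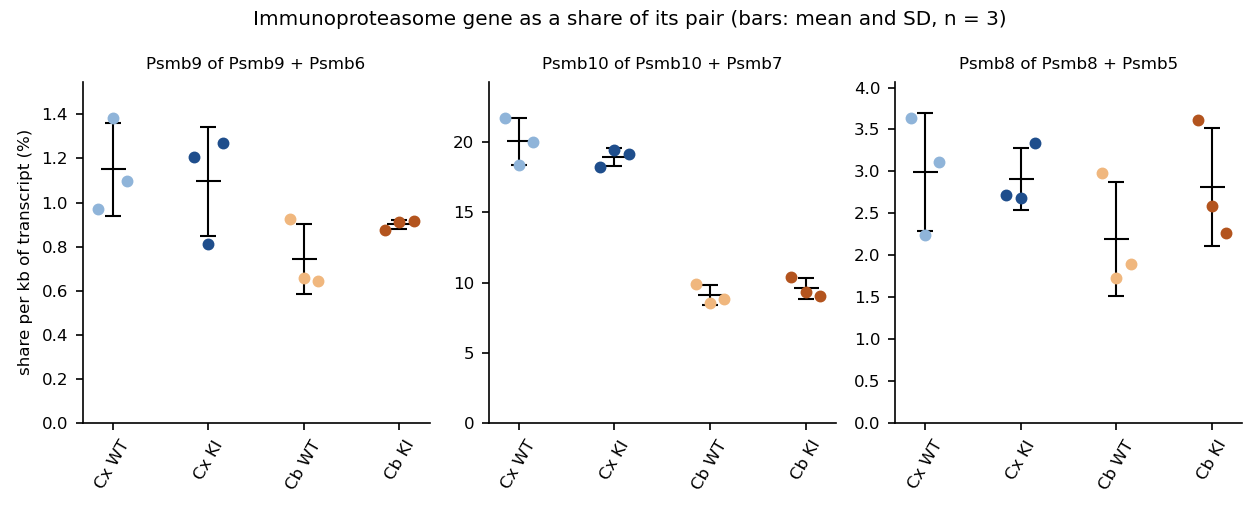
Share of each immunoproteasome gene in the sum with the constitutive gene it replaces, from normalized counts per kb of transcript, in every library (bars, mean and SD of 3 libraries). The Psmb10 share is 18.2% to 21.7% in the cortex and 8.55% to 10.4% in the cerebellum, and the genotypes overlap in every panel.

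The 31 genes of the standing 26S complex were not called in either region. In the cortex 28 of them had an LFC above 0, with a median of 0.08 and a range of −0.15 (Psmc5) to 0.23 (Psmd6). All 7 alpha ring and all 7 beta ring genes had positive values (medians 0.04 and 0.12), as had the 3 non-ATPase base genes (0.13) and 7 of 8 lid genes (0.05), against 4 of 6 ATPase genes (0.04). This lean rested mainly on 1 library. In SCA1 KI library A, 30 of the 31 genes lay above the WT mean of the cortex, by 0.27 log2 units on average, while in the other SCA1 KI libraries, E and F, 15 and 13 did, with averages of 0.00 and −0.04. The WT libraries themselves averaged −0.09 (B), 0.01 (C) and 0.09 (D). Without library A the median of the 31 genes was 0.00, with 15 above 0, and that of all 49 was 0.01. The latter was 0.04 without WT library B, 0.14 without WT library D, 0.14 without SCA1 KI library E and 0.16 without F.

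Library A also had the steepest fall of its values with transcript length, by a slope of −0.16 log2 units per doubling of length relative to WT, where the slopes of the other libraries ran from −0.06 to 0.04. Proteasome transcripts are short, with a median modelled length of 1430 bases against 3034 for all tested genes. With each library's trend on length and GC content removed, the cortical median of the 31 genes was 0.05, with 22 above 0, while that of all tested genes was 0.03 and had been 0.00 before. The part of transcript length in the lean of the 31 genes was not tested. Psme1 and Psme2 were also set against the mean of the 31 genes in the same library. Both had been picked because they were called in these libraries, so this is a description and no test. On that scale Psme1 was 0.63, 0.58 and 0.63 log2 units above its WT mean in libraries A, E and F. Psme2 was 0.32, 0.23 and 0.37 above its own WT mean. The same values in the WT cortex libraries lay between −0.10 and 0.10 for Psme1 and between −0.06 and 0.05 for Psme2.

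**Figure D4:**
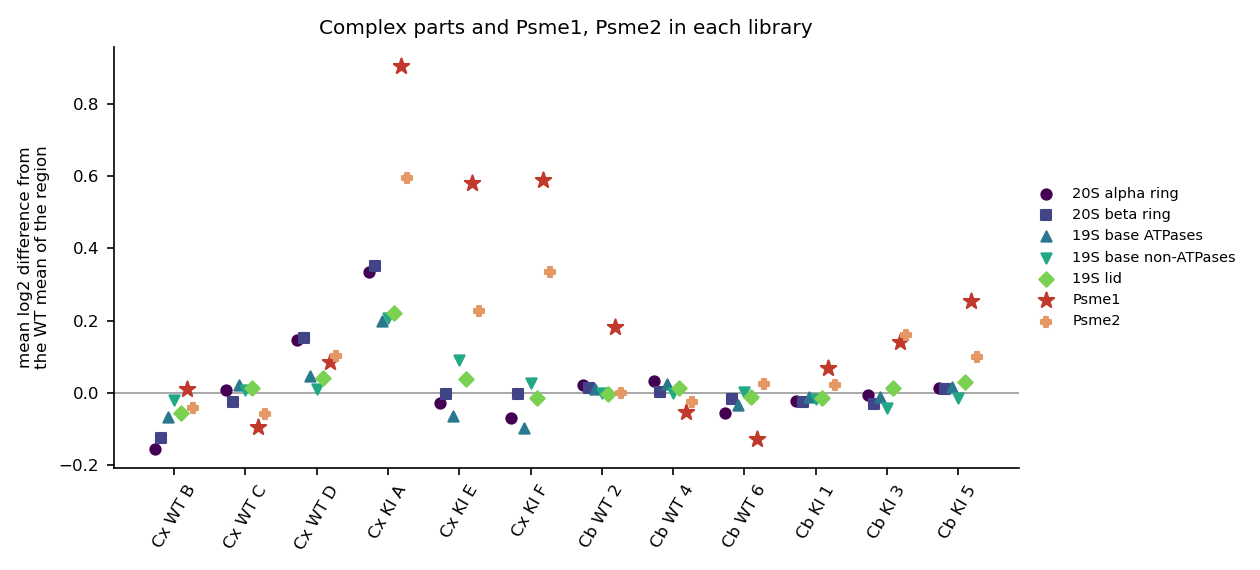
Mean log2 difference of each complex part, and of Psme1 and Psme2, from the WT mean of the region, in every library of cortex (Cx) and cerebellum (Cb). In library Cx KI A all parts of the complex are raised together, by 0.20 to 0.35, whereas Psme1 (0.58 to 0.90) and Psme2 (0.23 to 0.59) are raised in all 3 SCA1 KI cortex libraries.

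Among single genes of the complex, Psmd6, a lid subunit, had the smallest p in the cortex, with 1957, 2235 and 2212 normalized counts in WT and 2851, 2352 and 2314 in SCA1 KI mice. The groups did not overlap, and the LFC was 0.23 (SE 0.08, adjusted p = 0.0739). It was 0.13 without SCA1 KI library A (adjusted p = 0.226) and 0.15 with the trend on length and GC content removed (adjusted p = 0.113). Psmd1, the large scaffold of the base, had 6183, 6547 and 6025 in WT and 7206, 6996 and 6402 in SCA1 KI cortex. These groups overlapped (LFC 0.13, SE 0.06, adjusted p = 0.123). In the cerebellum Psmd6 had 2007, 2096 and 2055 normalized counts in WT and 2124, 2199 and 2263 in SCA1 KI mice (LFC 0.10, adjusted p = 0.624), and Psmd1 had 5482, 5306 and 5240 in WT and 5188, 5186 and 5127 in SCA1 KI mice (LFC −0.05, adjusted p = 0.75). The difference between the regions was 0.18 for Psmd1 (SE 0.08, adjusted p = 0.202).

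The LFC values of the standing complex had a narrower range in the cerebellum than in the cortex. The intervals were equally wide in both regions, because the fit shared the spread of each gene over all libraries. All 31 cerebellar LFC values lay between −0.10 and 0.10. For 23 of the genes the whole 95% confidence interval was inside −0.25 to 0.25, against 12 in the cortex. SCA1 KI libraries 1, 3 and 5 averaged −0.02, −0.01 and 0.01 log2 units from the WT mean over the 31 genes, within the −0.03 to 0.02 of the WT libraries. Changes above the limit used for calling were thus outside the interval for most of these genes in the cerebellum, and for the others the data did not settle it.

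The assembly chaperones were not called. Psmd10, a chaperone of the 19S base, came nearest. In the cerebellum it had 549, 559 and 507 normalized counts in WT and 443, 439 and 500 in SCA1 KI mice, all SCA1 KI libraries below all WT libraries (LFC −0.23, SE 0.09, adjusted p = 0.186). In the cortex it had 520.5, 573.5 and 574 in WT and 695, 606 and 614 in SCA1 KI mice, all above WT (LFC 0.20, SE 0.09, adjusted p = 0.147). The difference between the regions was 0.42 (SE 0.12, adjusted p = 0.0539). It passed under edgeR (adjusted p = 0.0473) and DESeq2 (0.0241), with a minimum mean of 100 normalized counts (0.0464) and without cerebellum SCA1 KI library 5 (0.0493), and it was 0.27 with the trend on length and GC content removed (0.114). Psmg2, a chaperone of the alpha ring, had 623, 661 and 628 normalized counts in WT and 577, 549 and 569 in SCA1 KI cerebellum (LFC −0.17, SE 0.10, adjusted p = 0.397), without overlap. In the cortex it had 471, 507 and 545 in WT and 623, 513 and 487 in SCA1 KI mice, and these groups overlapped (LFC 0.09, adjusted p = 0.594). The 4 genes of 20S chaperones had cortical LFC values of 0.09 to 0.28, and the other 19S chaperone genes, Psmd5 and Psmd9, lay between 0.13 and 0.16.

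Psmc3ip, which is no subunit, had 63.0, 49.8 and 60.3 normalized counts in WT and 82.8, 76.9 and 78.4 in SCA1 KI cortex without overlap, and its LFC of 0.46 (SE 0.17, adjusted p = 0.0864) did not pass except without cerebellum WT library 2 (0.0413). In the cerebellum it had 63.0, 91.6 and 90.9 in WT and 74.1, 83.8 and 83.3 in SCA1 KI mice (LFC −0.01). The difference between the regions was 0.47 (SE 0.24, adjusted p = 0.3). Its exons overlap those of Mlx.

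Counted by overlap alone, 6 of the 49 genes had all cortical SCA1 KI libraries above all WT libraries (12.2%, against 13% of all tested genes) and 2, Psme3 and Psme4, had them below (4.08%, against 18%). In the cerebellum 1 gene, Psmd6, was above (2.04%, against 14.3%) and 5 were below (10.2%, against 17.5%). The shares of genes above in the cortex were thus near the background.

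Levels per kb of transcript differed more among the genes than between the groups. In WT cortex the highest was the ATPase gene Psmc5 with 4163 ± 349 normalized counts per kb (SD, n = 3), followed by Psmc1 with 3373 ± 112 and the beta ring gene Psmb7 with 3105 ± 395. The last pair did not differ beyond their spread. Within the beta ring, whose subunits occur in equal number, the levels ran from 2035 ± 286 (Psmb5) to 3105 ± 395 (Psmb7), a 1.53-fold range, and in WT cerebellum from 1721 ± 67.1 (Psmb5) to 3144 ± 45.3 (Psmb6), a 1.83-fold range. ATPase genes spanned a 2.89-fold range in WT cortex and lid genes a 2.65-fold range, with Psmd11 lowest at 844 ± 36.5. Psme1 (887 ± 55.9) and Psme2 (652 ± 40.3) were below nearly all of them, and Psme3 (1907 ± 16.6) was the most abundant activator gene. The lowest levels were those of Psma8 (8.82 ± 1.49), Psmb9 (34.5 ± 6.04) and Psme2b (39.9 ± 12.2). Lengths come from 1 modelled transcript per gene, and those of Psma2 and Psma3 are long for their family, which lowers their values.

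Between WT cortex and WT cerebellum, 12 of the 49 genes were called higher in the cortex (24.5%, against 31% of all tested genes) and 3 lower (6.12%, against 30.7%), with a median LFC of 0.11. Psmb10 differed most, at 1015 ± 94.6 against 395 ± 43.6 normalized counts (SD, n = 3 each), a 2.57-fold difference (LFC 1.36, SE 0.11, adjusted p = 2.47e-07). Psmb8 followed at 102 ± 23.9 against 62.7 ± 17.7 (LFC 0.70, SE 0.25, adjusted p = 0.024), a call that was lost without any one of WT cortex libraries B and D and WT cerebellum libraries 4 and 6 (adjusted p = 0.0683, 0.0944, 0.0886 and 0.0826). Psme1 was 1.57-fold higher (LFC 0.65, SE 0.11, adjusted p = 0.000122), and Psmb9 had an LFC of 0.54 (adjusted p = 0.0602). Microglia, which express the immunoproteasome genes, had summed markers of 12570 to 14111 normalized counts in WT cortex and 4010 to 5592 in WT cerebellum, and the part of this in the difference was not tested. Of the standing complex 7 genes were called higher in the cortex (22.6%, against 31% of all tested genes) and none lower (against 30.7%). Psma5 (0.40) and Psmd7 (0.35) were at the top. The 3 genes called lower were Psmc3ip (−0.48), Psmg2 (−0.33) and Psme4 (−0.26). With the trend on length and GC content removed, or without WT cerebellum library 6, 7 genes were called higher in place of 12, and without WT cerebellum library 4 only 1 was called lower in place of 3.

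Of 45 tested genes on a list of other ubiquitin and proteasome genes, 3 were called higher and 3 lower in the SCA1 KI cortex. None was called in the cerebellum, against 5.36% of all tested genes in either direction. In that region 7 had an unadjusted p under 0.05, for which no share of all tested genes is given here. The cortical shares, 6.67% in each direction, were near those of all tested genes (4.82% higher and 10.8% lower). Those called higher were Faf1, a cofactor of the segregase Vcp, and Nfya and Nfyc, subunits of the NF-Y transcription factor, which is known to bind proteasome promoters. Nfya had 966, 900 and 794 normalized counts in WT and 1481, 1293 and 1182 in SCA1 KI cortex (LFC 0.57, SE 0.10, adjusted p = 0.00241). Nfyc had 928, 869 and 904 in WT and 1492, 1112 and 1161 in SCA1 KI cortex (LFC 0.47, SE 0.09, adjusted p = 0.00418), and Faf1 had 1420, 1383 and 1403 in WT and 1757, 1676 and 1799 in SCA1 KI cortex (LFC 0.31, SE 0.05, adjusted p = 0.00144). None of these groups overlapped. In the cerebellum, where none of the 3 was called, Nfya had 870.1, 1057 and 991 in WT and 1187, 1133 and 1038 in SCA1 KI mice (LFC 0.20, adjusted p = 0.348), which overlapped. Nfyc had 1579, 1614 and 1675 in WT and 2063, 1920 and 1982 in SCA1 KI cerebellum (LFC 0.29, adjusted p = 0.1), and Faf1 had 1801, 1775 and 1748 in WT and 1911, 1963 and 1859 in SCA1 KI cerebellum (LFC 0.11, adjusted p = 0.337), both without overlap.

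Those called lower were Ubqln4, a shuttle factor that carries ubiquitinated proteins to the proteasome, Ddi2, the protease that cuts Nfe2l1 into its active form, and Nfe2l1 itself, the transcription factor that raises proteasome genes when proteasome activity falls. Nfe2l1 had 16957, 16576 and 15669 normalized counts in WT and 12581, 14071 and 13819 in SCA1 KI cortex (LFC −0.28, SE 0.06, adjusted p = 0.007). It was under the limit of 0.25 when library A of the SCA1 KI mice was left out (−0.23, adjusted p = 0.0222) and with the trend on length and GC content removed (−0.15, adjusted p = 0.0473). In the cerebellum Nfe2l1 had 12334, 10970 and 11287 in WT and 9680, 9831 and 9971 in SCA1 KI mice, also without overlap (LFC −0.23, SE 0.06, adjusted p = 0.0502). Ddi2 had 718, 744 and 638 in WT and 452, 620 and 478 in SCA1 KI cortex (LFC −0.45, SE 0.11, adjusted p = 0.0171). Its call was lost with the cortex fitted on its own (adjusted p = 0.0676), with that trend removed (0.0544) and without SCA1 KI library A (0.0615) or F (0.0588) or WT library B (0.051) or C (0.0692). In the cerebellum Ddi2 had 540, 601 and 636 in WT and 622, 597 and 587 in SCA1 KI mice, and the groups overlapped (LFC 0.03, adjusted p = 0.951).

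Ubqln4 had 6911, 6878 and 6610 normalized counts in WT and 4250.5, 5229 and 5030 in SCA1 KI cortex (LFC −0.50, SE 0.08, adjusted p = 0.000913). In the cerebellum it had 3285, 3691 and 3533 in WT and 3528, 3494 and 3169 in SCA1 KI mice, which overlapped. Sqstm1, the gene of the ubiquitin-binding adaptor p62, had 16223, 16004 and 16330 in WT and 19723, 17432 and 16363 in SCA1 KI cortex (LFC 0.14, SE 0.07, adjusted p = 0.217), and 12292, 10769 and 11396 in WT and 10979, 10334 and 10764 in SCA1 KI cerebellum (LFC −0.10, adjusted p = 0.528). Of 9 antigen processing and interferon genes on the list, none was called in the cortex, and 8 had an LFC above 0 (median 0.22). Named after their values were seen, Tap2 and B2m had an unadjusted p under 0.05 there. Tap2 had an LFC of 0.31 (adjusted p = 0.066), and B2m, the only gene of these below 0, −0.29 (adjusted p = 0.0952). In the cerebellum, where 6 of the 9 lay above 0 and none was called, Tap2 had an LFC of 0.33 (adjusted p = 0.111).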

How the data were processed

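Poly-adenylated RNA of cortex and cerebellum was sequenced in 12 libraries, 3 per group. The authors mapped reads to mm10 with STAR, obtained counts per gene with featureCounts and scaled them with DESeq2 (versions not given in the sources used here). The deposited table holds 1 signal per gene and library, the normalized count, which is a read count divided by the size factor of that library. All values (100%) were whole reads to within 0.05 of a read, and these reads were recovered. Replicates differed from each other by more than sampling noise (chi-square per gene from 7.55 to 36.6), so none was counted as a copy.

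Genes at a mean of 10 or more (15369 of them) were fitted on log2(normalized count + 1) with limma 3.58.1 (R 4.3.3, empirical Bayes moderation, variance trend on mean level), using all libraries and 4 group means. The pseudocount of 1 understates the LFC of low genes. Called genes had an adjusted p under 0.05 and, for comparisons of 2 groups, an LFC beyond 0.25 in either direction. Alternatives were other pseudocounts (0.5, 5), no filter or a minimum mean of 100, separate fits of the regions, centring on the region's median gene, edgeR 4.0.16, DESeq2 1.42.0, no LFC limit, removal of each library's trend on length and GC content, and leaving out each library. The fits were tested on simulated data, with an absolute LFC of 1 in changed genes of a mean of at least 100. That simulation does not cover smaller changes or genes at low counts. Gene models are GENCODE vM21 (GRCm38), with 1 transcript per gene, and 15 of the 49 genes overlap an exon of another gene. Promoters are from RefSeq (GRCm38.p6), and 41 of the 49 symbols matched.

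The members and lists were chosen with earlier results of these data known. Named with values in every library are members called in a genotype comparison or in the difference between the regions, the 6 with the smallest p in each of these, the 3 immunoproteasome genes, the 3 with the largest LFC between the WT regions, and, of the pathway list, genes called in a genotype comparison, Nfe2l1 and Sqstm1, besides Atxn1. Psme3, the neighbours of Psme1 and the interferon-type motif were added after values were seen. Some items are not reported here.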

Additional observations from a re-analysis of the deposited data

Results flagged for a closer look

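The SCA1 KI effect on Psme1 differed between the regions, by an LFC of 0.54 (cortex minus cerebellum, SE 0.15, adjusted p = 0.0439 in limma's test of the difference). The difference was 0.44 with the trend on length and GC content removed, where the cerebellar LFC was 0.25. All 3 SCA1 KI libraries of the cortex were higher than all WT libraries, and the call was lost when any one of 8 of the 12 libraries was left out, as named above.

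The SCA1 KI effect on Ubqln4 differed in the same test by −0.45 (SE 0.11, adjusted p = 0.0245), with a lower level in 3 of 3 SCA1 KI libraries of the cortex. The adjusted p was 0.0741 without cerebellum SCA1 KI library 1, 0.0548 without cerebellum WT library 2, 0.069 without cerebellum SCA1 KI library 3 and 0.0585 without cortex WT library C.

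Groups of 3 libraries were not tested for outlying samples.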

How the results depend on the processing

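The count of 2 genes called higher in the SCA1 KI cortex was 1 with each region fitted on its own and 1 to 3 when libraries were left out singly, and counts of 0 called lower there and 0 called in the cerebellum held in every alternative. The difference between the regions, called for 1 gene, was called for 2 with a minimum mean of 100 normalized counts, with edgeR and with DESeq2 (Psmd10 joining Psme1), and for 0 to 1 when libraries were left out. Between the WT regions, 12 genes called higher became 7 with the trend on length and GC content removed and 7 to 14 when libraries were left out, and 3 called lower became 1 to 4. The cerebellar median LFC of 0.0036 was 0.0786 with that trend removed, and the median of all tested genes moved alike, from −0.0049 to 0.0757. The cause of these shifts was not tested. Over 29 LFC values of named genes and 22 alternatives, 26 of 622 values lost a call, 9 gained one and 0 changed sign. No paired analysis was possible because the library columns carry no replicate number of the labels. With 3 libraries per group, changes of the low genes Psmb8, Psmb9, Psma8 and Psme2b have intervals of 0.52 to 0.74 log2 units on either side.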
